A study of Mus musculus with 24 samples.

Results

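The stretch of mouse chromosome 7 around the gene Mki67 was examined in ATAC-seq libraries of bone marrow B-cell progenitors. It runs from 10 Mb below the gene to the last peaks of the chromosome, chr7:125689784-145441459 on mm10, and the gene itself lies at chr7:135689784-135716450. Overlapping peaks of all 24 libraries were joined into 159326 regions, and the 2004 regions that lie in these limits are the members. Of these, 1012 lay at lower coordinates than Mki67, 988 at higher coordinates and 4 overlapped the gene. The rest of chromosome 7 held 7579 regions and the other chromosomes 149743. Position alone decided which regions are members, but the segment was chosen with earlier results of these data known.

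The libraries came from bone marrow cells labelled as lymphoid progenitors, at the Pre-pro-B stage, the later Pro-B stage and the Small pre-B stage that follows. At each stage, cells of the genotype WT were compared with cells of the genotype Mki67-/-, with 4 libraries in each of the 6 groups. The labels name no treatment, age or strain, do not say how the Mki67-/- allele was made, and do not say whether libraries came from separate mice. P-values therefore measure the spread between libraries, and those across stages are too small if stages share mice.

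ATAC-seq marks DNA that a transposase can reach, and a peak is a place where such cuts pile up, often a promoter or an enhancer. Mki67 encodes Ki-67, a large protein that coats mitotic chromosomes and is used as a marker of dividing cells. DNA close to a gene on a chromosome is inherited with it, so that mice chosen for an allele also share the stretch around it. In this design the genotype at Mki67 and any other difference carried on the same stretch of chromosome 7 cannot be told apart.

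The distal arm of chromosome 7 holds the tetraspanin gene Cd81, the myeloid integrin genes Itgam and Itgax, a large imprinted cluster around Kcnq1 and Igf2, and the cyclin gene Ccnd1. The promoters shown here, read 5′ to 3′ on the strand of the gene, are those of Mki67 and of the 3 genes whose listed promoter overlapped a region that separated the genotypes completely at a stage. They are RefSeq promoters of GRCm38.p6, the build of mm10, with 250 bases before and 50 after the start. Mki67 lies at chr7:135716330-135716629 on the minus strand, Apobr at chr7:126584758-126585057 on the plus strand, Ptpre at chr7:135593231-135593530 on the plus strand and Zfp941 at chr7:140822129-140822428 on the minus strand. Capitals mark the Ets core GGAA on either strand, and in Mki67 also the motif TTTGAA, known as the cell-cycle homology region, and the CCAAT box.
Mki67: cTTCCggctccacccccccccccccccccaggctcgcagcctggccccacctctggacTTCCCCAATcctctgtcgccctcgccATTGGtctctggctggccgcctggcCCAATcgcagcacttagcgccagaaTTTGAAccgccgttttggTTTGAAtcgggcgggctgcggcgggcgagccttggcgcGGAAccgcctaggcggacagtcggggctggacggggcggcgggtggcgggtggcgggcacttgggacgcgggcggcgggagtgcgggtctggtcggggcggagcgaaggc
Apobr: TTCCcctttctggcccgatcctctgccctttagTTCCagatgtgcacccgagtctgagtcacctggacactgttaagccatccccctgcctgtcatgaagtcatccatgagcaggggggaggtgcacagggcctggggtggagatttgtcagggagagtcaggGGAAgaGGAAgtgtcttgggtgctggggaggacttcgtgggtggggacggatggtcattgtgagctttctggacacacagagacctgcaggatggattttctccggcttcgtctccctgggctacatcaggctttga
Ptpre: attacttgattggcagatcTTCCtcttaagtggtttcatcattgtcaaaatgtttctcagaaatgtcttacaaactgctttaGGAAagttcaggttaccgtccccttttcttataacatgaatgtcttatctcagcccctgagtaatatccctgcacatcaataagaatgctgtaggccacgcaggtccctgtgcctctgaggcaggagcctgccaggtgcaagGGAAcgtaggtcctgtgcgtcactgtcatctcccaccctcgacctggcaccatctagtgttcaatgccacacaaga
Zfp941: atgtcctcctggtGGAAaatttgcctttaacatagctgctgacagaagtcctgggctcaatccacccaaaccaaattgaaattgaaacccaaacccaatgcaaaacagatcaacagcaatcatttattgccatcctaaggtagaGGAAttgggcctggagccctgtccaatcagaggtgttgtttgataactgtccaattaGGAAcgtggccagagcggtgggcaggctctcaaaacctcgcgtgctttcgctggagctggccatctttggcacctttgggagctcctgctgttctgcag

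The Mki67 promoter had 72.7% G and C bases, against 57.3% in Apobr, 49.3% in Zfp941 and 47.0% in Ptpre, and a median of 52.7% over 32851 promoters. It held the cell-cycle homology motif at 2 places, the CCAAT box at 3 and the Ets core at 3, and an Ets core on the other strand directly adjoins a CCAAT box. The homology motif occurred in 17.9% of all promoters, the CCAAT box in 37.4% and the Ets core in 96.0%. The homology motif and the CCAAT box were searched after the sequence had been seen, because such elements are known from promoters of genes that peak late in the cell cycle. Apobr held the Ets core at 4 places, Ptpre and Zfp941 at 3 each, and none of the 3 held the homology motif. The CCAAT box, left in lower case there, occurred at 4 places in Zfp941, at 1 in Ptpre and at none in Apobr. A match of letters is a description of the sequence and not a binding site.

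The Mki67 promoter was open in every library of both genotypes. The region chr7:135715647-135717198 had a peak in all 24 libraries, among the strongest 6.08% to 15.6% of the peaks of its library. Peaks covered all 300 promoter bases in 5 of the 6 groups and at least 293 in WT Small pre-B cells. A region 19022 bp from the gene, chr7:135735472-135736851, also had a peak in all 24 libraries and ranked among the strongest 1.11% to 4.43%. Inside the gene, chr7:135705041-135706515 had a peak in all 8 Pre-pro-B libraries, in 1 Mki67-/- Pro-B library and in no other. Within 10 kb of the gene, WT libraries had 3.50 peaks on average and Mki67-/- libraries 3.58 (exact permutation p = 1, with genotype permuted within stage). Peaks in DNA do not show whether the protein is made, and the deleted part of the gene is not given in the labels, so these values do not check the genotype.

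The lists held 54387 to 88946 merged peaks per library. By merged peaks, Mki67-/- lists were shorter on average in Pre-pro-B and Small pre-B cells. At the Pro-B stage the means of 74698 ± 3669 for WT and 74484 ± 2682 for Mki67-/- (SD, n = 4 each) differed by less than the spread, and by entries before merging the Mki67-/- lists were longer, with 102048 against 99610. In Pre-pro-B libraries the share of segment regions with a peak was 49.0% ± 4.25 for WT and 45.2% ± 5.99 for Mki67-/- (SD, n = 4 each). Pro-B libraries gave 43.6% ± 1.79 and 42.5% ± 2.05, Small pre-B libraries 40.4% ± 5.28 and 37.5% ± 5.07. These groups overlap at each stage. Taking each of the 24 libraries by itself, 19.6% to 20.9% of its chromosome 7 regions with a peak lay in the segment. Libraries with few or many peaks for their group were Mki67-/- Pre-pro-B replicate 4 with 67920 merged peaks, WT Small pre-B replicate 1 with 85621 and Mki67-/- Small pre-B replicate 1 with 54387. The 10 B-lineage marker genes had peaks in every library. Their summed number of peaks was 69.3 for WT and 62.8 for Mki67-/- cells at the Pre-pro-B stage, 116 and 112 at the Pro-B stage, and 96.5 and 94.5 at the Small pre-B stage. Summed peaks at 7 T and NK marker genes were 34.5 to 37.0 in the Pre-pro-B groups and 23.5 to 25.3 later, and those at 6 myeloid genes 39.8 to 40.3 and 21.3 to 22.5. Their part in the results was not tested.

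The first question was how often a region of the segment was open in each library of a genotype while absent from all libraries of the other. Each such region has the smallest two-sided exact permutation p that 4 against 4 libraries allow, 0.0286. The denominator was the regions with a peak in exactly 4 of the 8 libraries of a stage, a choice made without the genotype. In Pre-pro-B cells 26 of 70 such segment regions were divided by genotype, or 37.1% (exact binomial interval 25.9% to 49.5%). The share was 5.51% over all regions of the genome and 5.37% over the rest of chromosome 7 (2.89% to 9.01%). The intervals cover counting error only, and neighbouring regions are not independent.

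The Pre-pro-B differences ran in both directions. A peak in WT only was seen in 16 regions, or 22.9% of the 70, against a background of 4.71%. A peak in Mki67-/- only was seen in 10 regions, or 14.3%, against a background of 0.796%. Across the whole genome 38 Pre-pro-B regions were open in Mki67-/- cells only, and the segment held 10 of them, or 26.3%, although it holds 1.26% of all regions. The rest of chromosome 7 held 1 such region and 12 open in WT only. Mki67-/- Pre-pro-B replicate 4, the library with few peaks, bears on both directions. A region counted as open in Mki67-/- cells only must have a peak in it, and a region counted as open in WT only must lack one. Without this library the Pre-pro-B share was 21.4% in the segment and 3.54% in the rest of chromosome 7. With 4 against 3 libraries more regions enter the denominator, so these shares are compared with each other and not with 37.1%.

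In Pro-B cells the lists of both genotypes had almost the same length, and the segment again stood above its surroundings. All or none by genotype were 29 of 69 regions, or 42.0% (30.2% to 54.5%), against a background of 13.6%. The rest of chromosome 7 gave 28 of 199, or 14.1% (9.56% to 19.7%). The directions were even, with 14 regions open in WT only (20.3%, background 7.02%) and 15 in Mki67-/- only (21.7%, background 6.55%).

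In Small pre-B cells the segment and its surroundings lay closer together. All or none by genotype were 23 of 59 regions, or 39.0% (26.5% to 52.6%), against a background of 20.3%. The rest of chromosome 7 gave 50 of 173, or 28.9% (22.3% to 36.3%), and these intervals overlap. Of the 23 regions, 12 were open in WT only (20.3%, background 8.51%) and 11 in Mki67-/- only (18.6%, background 11.7%). This stage held the libraries with the longest and the shortest list for their groups. Without Mki67-/- Small pre-B replicate 1 the number was 45 regions, 12 in WT and 33 in Mki67-/- cells, and the share was 34.6% against 23.9% in the rest of chromosome 7. Without the 3 libraries that stood apart it was 51 regions, 15 in WT and 36 in Mki67-/- cells, and the shares were 60.0% and 48.4%. That run sets 3 against 3 libraries at this stage, for which complete division is a weaker demand, so its counts and shares are not of the same form as those over 8 libraries. With the 40000 strongest peaks of each library, 2 regions were open in WT only and 17 in Mki67-/- only. With a -log10 q of at least 10 there were 9 of each, so the balance of directions at this stage depends on which peaks are kept. The plot of shares by stage and place sets the 3 stages side by side.

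**Figure D1:**
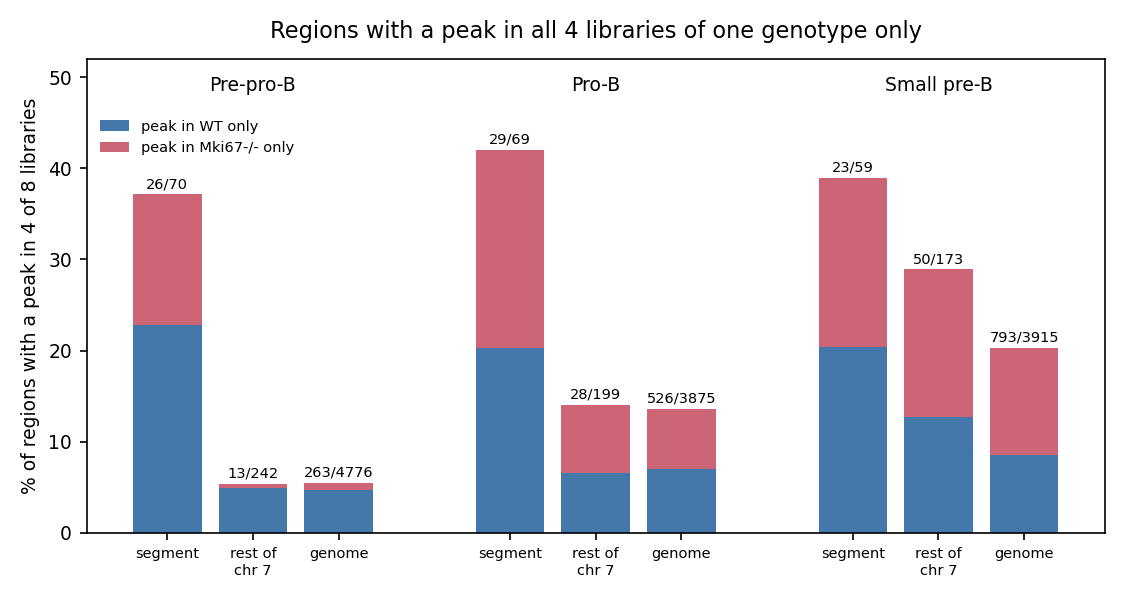
Share of regions with a peak in exactly 4 of 8 libraries whose 4 libraries were all of one genotype (y axis, percent), for the segment around Mki67, the rest of chromosome 7 and the whole genome at each stage; colours give the genotype with the peak and the numbers on the bars the counts. The segment bars reach 37.1%, 42.0% and 39.0%, against 5.37%, 14.1% and 28.9% in the rest of the chromosome.

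Counted once over the 3 stages, 71 segment regions were all or none by genotype at some stage, or 3.54% of the members, against 0.979% of all regions. Of the rest of chromosome 7, 1.19% were. In the segment 39 of the 71 were open in WT only and 32 in Mki67-/- only, and none changed direction between stages. Only 6 of the 71 were all or none at 2 or more stages. None of the 1560 such regions of the whole genome changed direction either. Of the 71, 8 lay within 1 kb of a gene start, 37 in a gene body and 26 between genes, or 11.3%, 52.1% and 36.6%. Over all members the shares were 14.5%, 48.2% and 37.3%. The 337 segment regions open in all 24 libraries had another layout, with 46.3% at gene starts and a median width of 1058 bp, against 450 bp for the 71.

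The regions that differed mostly ranked low in the lists of their libraries. In WT Pre-pro-B libraries the 16 regions open in WT only had a median rank in the strongest 72.2% of peaks, and the 650 segment regions open in all 8 libraries a median rank in the strongest 28.8%. In the other 5 groups the regions all or none by genotype had median ranks in the strongest 62.5% to 74.4%, against 29.6% to 33.7% for regions open in all 8 libraries. A peak in all 8 libraries itself favours strong peaks, so this contrast does not set the divided regions apart. Regions of the denominator that were not divided by genotype were not ranked. Whether the divided regions are weaker than those was not tested.

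No region that overlaps Mki67 was all or none by genotype. The nearest region that was all or none lay 96.2 kb below the gene, at one start of Ptpre, and the nearest above lay 235 kb away. Within 1 Mb of the gene lay 140 members, of which 4 were open in WT only in Pre-pro-B cells, none was all or none in Pro-B cells and 1 was open in Mki67-/- only in Small pre-B cells. These 5 regions are 3.57% of the 140, about the share of the whole segment, 3.54%. Of the 140, only 5 had a peak in exactly 4 of the 8 Pre-pro-B libraries, and 4 of these 5 were the ones divided by genotype. In steps of 2 Mb, the share of regions all or none at any stage was 1.57% just below the gene and 2.52% just above it. It reached 6.34% at 4 to 6 Mb below the gene, around Htra1 and Dmbt1, and 5.42% at 2 to 4 Mb above it, around Jakmip3 and Pwwp2b. At 6 to 8 Mb above the gene, around Cd81 and Kcnq1, it was 4.62%. Towards the lower limit it fell to 1.81% at 8 to 10 Mb below the gene. The steps hold 119 to 332 regions and 2 to 11 such regions each, so single steps are imprecise.

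**Figure D2:**
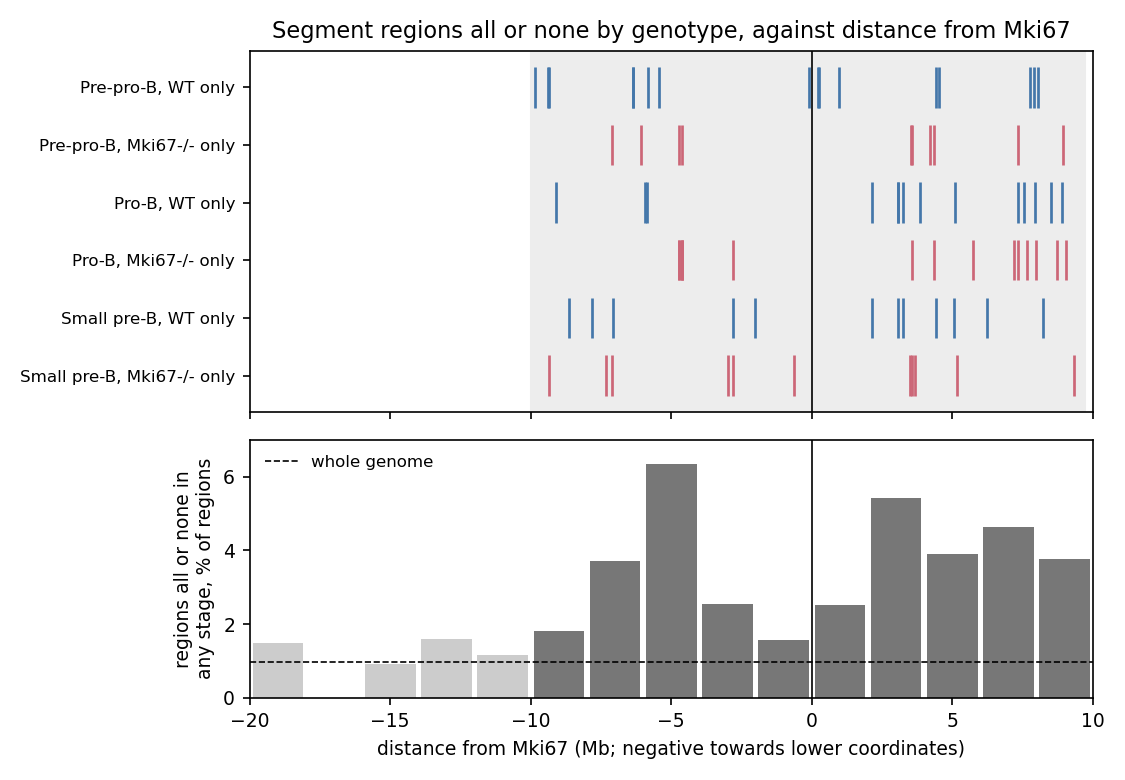
Upper panel, each segment region all or none by genotype as a tick at its distance from Mki67 (x axis, Mb; grey marks the segment), by stage and by genotype with the peak; lower panel, regions all or none at any stage as a percentage of regions in steps of 2 Mb, with the value of the whole genome dashed at 0.979%. The steps reach 6.34% below and 5.42% above the gene; those next to it are 1.57% and 2.52%, although the 140 regions within 1 Mb reach 3.57%.

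Along the whole of chromosome 7 in windows of 10 Mb, the pair of windows that flank Mki67 stood highest. The window below the gene had 30 of 1013 regions all or none at some stage, or 2.96%, and the window above it 41 of 991, or 4.14%. In the other windows the share ran from 0% to 2.16%. By stage, as a share of all regions, the pair led all windows in Pre-pro-B and Pro-B cells. Among regions with a peak in exactly 4 of 8 Pro-B libraries, the window below the gene did not lead. There 9 of 34 were divided, or 26.5%, against 4 of 15, or 26.7%, in the next window down. The window above the gene gave 57.1%. In Small pre-B cells the window from 80 to 90 Mb below Mki67 held 7 such regions of 463, a higher share than either window at the gene. Among regions with a peak in exactly 4 of 8 Small pre-B libraries, that window gave 7 of 15, or 46.7%. The windows from 60 to 70 and from 40 to 50 Mb below the gene gave 3 of 5 and 2 of 4. All of these shares exceed those at the gene, 36.7% below it and 41.4% above it.

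**Figure D3:**
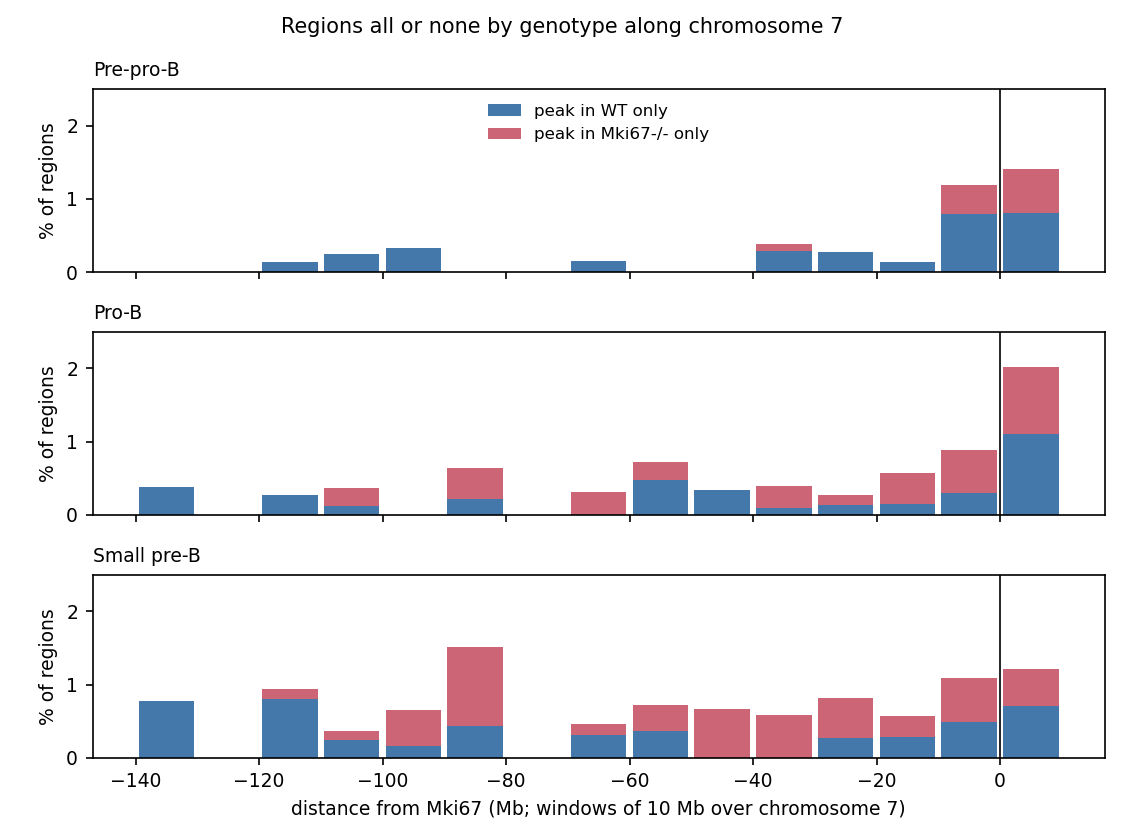
Regions all or none by genotype as a percentage of all regions in windows of 10 Mb along chromosome 7 (x axis, distance from Mki67 in Mb), by stage and by genotype with the peak. Bars next to 0 are the highest in Pre-pro-B and Pro-B cells; over all stages they are 2.96% and 4.14% of regions.

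The share of regions all or none at any stage was 2.96% in the 10 Mb below the gene and 1.15% in the next 10 Mb, outside the limit. In steps of 2 Mb it was 1.81% just inside the limit (6 of 332 regions) and 1.15% just outside (1 of 87). The other measure takes only regions with a peak in exactly 4 of 8 libraries, added over the stages. By it, 6 of 24 were divided by genotype in the step inside and 2 of 8 in the step outside, or 25% each. These steps of 2 Mb therefore show no clear fall at the limit. In the windows of 10 Mb this share too was higher inside the limit than outside. None of the regions next to the limit was divided by genotype. The 3 members just inside it, at 9.98, 9.98 and 9.97 Mb below the gene, were open in 12 of 12, 3 of 12 and 1 of 12 WT libraries and in 12 of 12, 3 of 12 and 0 of 12 Mki67-/- libraries. The 3 regions just outside it, in Gtf3c1, were open in 8, 7 and 8 WT and in 7, 7 and 8 Mki67-/- libraries. A region 10.13 Mb below Mki67, in a gene body, chr7:125555450-125556203, was open in 11 of the 12 WT libraries, against 0 of 12 for Mki67-/-. It lies in Il4ra, the receptor chain for interleukins 4 and 13. It was missing in 1 WT library only, a Small pre-B library, and ranked among the strongest 53.1% to 74.6%. This is the only region of chromosome 7 outside the segment with an exact permutation p under 0.001 across stages (p = 2.92e-05, Benjamini-Hochberg adjusted p = 0.305), and it was singled out after its values were seen.

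Across the 3 stages, genotype was also tested with 12 against 12 libraries, permuted within stage. Of the 2004 members, 924 had a peak in 4 to 20 libraries and could be tested, 644 had one in fewer libraries, among them 438 in a single library, and 436 in more. An unadjusted exact permutation p under 0.05 was found for 79 of the 924, or 8.55%, against a background of 2.7%. The rest of chromosome 7 gave 119 of 3371, or 3.53%. Open more often in WT were 45 regions (background 1.61%) and in Mki67-/- cells 34 (background 1.09%). A p under 0.001 was found for 8 segment regions, against 1 in the rest of chromosome 7 and 26 in the genome, a background of 0.0355%. No region of the segment or the genome passed after Benjamini-Hochberg adjustment of the exact permutation p over all 73248 regions tested, and the smallest adjusted p was 0.214. Of the 71 regions all or none at a stage, 6, or 8.45%, were so at 2 or more stages, against 1 of 90 in the rest of chromosome 7 and a background of 1.28%.

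The region with the sharpest division lay 8676 bp from the nearest end of Pwwp2b, which encodes a chromatin protein, at chr7:139275932-139276718, inside the non-coding gene Gm32486. All 12 Mki67-/- libraries had this peak and 0 of the 12 WT libraries did. Its -log10 q was 28.3, 72.7, 22.8 and 36.3 in the Mki67-/- Pre-pro-B libraries. At the Pro-B stage it was 40.6, 107, 116 and 69.7, and at the Small pre-B stage 8.44, 15.9, 30.4 and 16.9. With all peaks the division was complete at each stage, and the genotypes did not overlap (exact permutation p = 5.83e-06, the smallest that 12 against 12 libraries in 3 stages allow, Benjamini-Hochberg adjusted p = 0.214). It was not complete in shorter lists. The difference in the fraction of libraries, Mki67-/- minus WT, was 0.667 with the 40000 strongest peaks of each library (exact permutation p = 0.00102). With a -log10 q of at least 10 it was 0.917 (exact permutation p = 2.92e-05). Inside Pwwp2b itself, chr7:139253811-139254217 was open in Mki67-/- Pre-pro-B cells only.

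Dmbt1, which encodes a secreted scavenger receptor of epithelia, held 3 regions in its gene body that were open in Mki67-/- and closed in WT Pro-B libraries. The region chr7:131073425-131073874 was open in 11 of the 12 Mki67-/- libraries, against 0 of 12 for WT (exact permutation p = 2.92e-05, Benjamini-Hochberg adjusted p = 0.305). Its -log10 q was 17.7, 20.7, 16.9 and 6.72 in Mki67-/- Pre-pro-B and 40.8, 24.2, 52.9 and 41.5 in Pro-B libraries. In Small pre-B cells it was 13.9, 4.06 and 9.47, and replicate 1, the library with the shortest list, had no peak. The neighbours chr7:131067926-131068511 and chr7:131074207-131074535 were open in all 4 Mki67-/- Pro-B and no WT Pro-B libraries. Later, at the Small pre-B stage, the first of them was open in all 8 libraries, and the second in 4 Mki67-/- libraries and 1 WT library. In Pre-pro-B cells the first was open in 3 Mki67-/- libraries and the second in none. Below Dmbt1, in Htra1, a secreted protease gene, chr7:130959672-130960607 had a peak in all 8 Mki67-/- Pre-pro-B and Pro-B libraries, in no WT library and in no Small pre-B library (exact permutation p = 0.000408, adjusted p = 1). The difference in the fraction of libraries with the Htra1 peak, Mki67-/- minus WT, was 0.667. It dropped to 0.0833 (exact permutation p = 1) when each library kept only its 40000 strongest peaks. The same restriction gave 0.333 for chr7:131073425-131073874 in Dmbt1 (exact permutation p = 0.0286), against 0.917.

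At 2 to 4 Mb above Mki67, 3 regions were open in WT and closed in Mki67-/- cells from the Pro-B stage on, each with an exact permutation p of 0.000408 and an adjusted p of 1. The first, chr7:137860624-137860988, lies between genes, 347984 bp from Tcerg1l. It had a peak in all 4 WT libraries of Pro-B and of Small pre-B cells, with a -log10 q of 29.2 to 47.1, and in no other library. The second, chr7:138959908-138960564, lies in Jakmip3, which encodes a microtubule-binding protein, and showed the same pattern with a -log10 q of 4.47 to 70.5. The third, chr7:138792952-138793854, lies 41964 bp from Mapk1ip1. It was open in all 8 Pre-pro-B libraries of both genotypes, kept its peak in all 8 later WT libraries and had no peak in the 8 later Mki67-/- libraries. For each of the 3 the difference in the fraction of libraries was -0.667 with all peaks. Restricted to the 40000 strongest it was -0.0833 at Mapk1ip1 (exact permutation p = 1), -0.250 in Jakmip3 (exact permutation p = 0.143) and -0.500 near Tcerg1l (exact permutation p = 0.0102).

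The other 2 regions with p under 0.001 were less complete. In Mtg1, a GTPase gene of the mitochondrial ribosome, chr7:140141430-140141657 had a peak in 2 Pre-pro-B, 3 Pro-B and 4 Small pre-B WT libraries and in no Mki67-/- library (exact permutation p = 0.000437, adjusted p = 1). In Cttn, which encodes the actin-binding protein cortactin, chr7:144438881-144439390 had a peak in 2, 4 and 3 Mki67-/- libraries and in no WT library (exact permutation p = 0.000437, adjusted p = 1). The adjusted values are Benjamini-Hochberg values over the genome. In Mtg1 the difference in the fraction of libraries was -0.250 when only the 40000 strongest were kept (exact permutation p = 0.143), against -0.750, and in Cttn 0.333 (exact permutation p = 0.0714), against 0.750. Of the 8 regions, 4 were open in WT and 4 in Mki67-/- cells, and they spread from 4.73 Mb below to 8.72 Mb above Mki67.

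**Figure D4:**
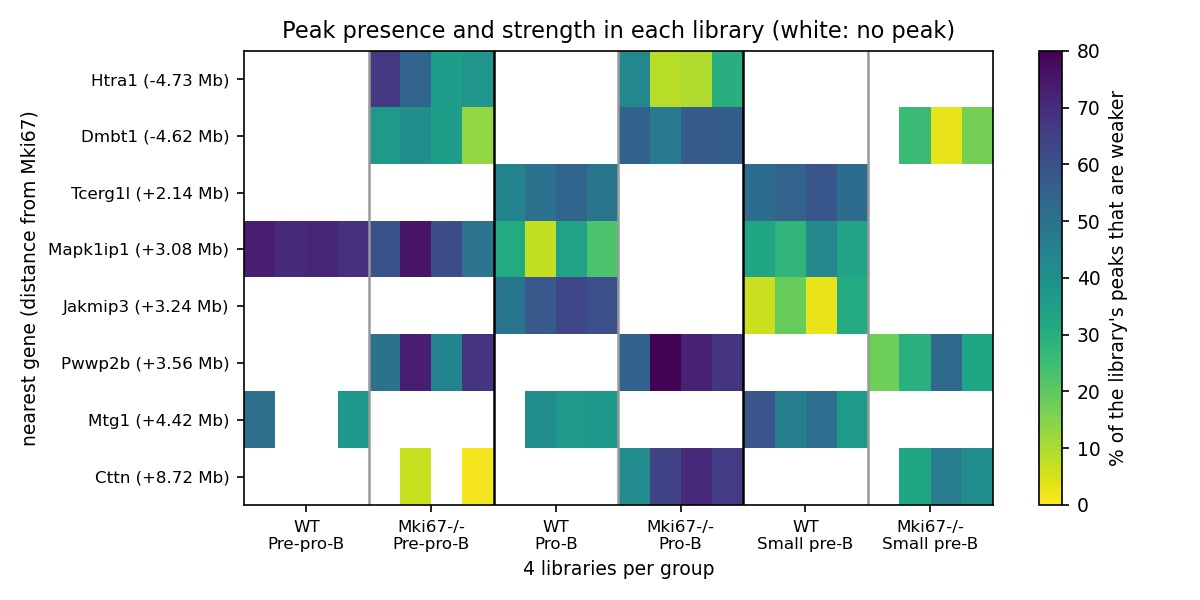
Peaks of the 8 segment regions with an exact permutation p under 0.001 (rows, named by the nearest gene, with the distance from Mki67) in each of the 24 libraries (columns, by group); white means no peak, and colour gives the percentage of peaks of the library that are weaker. The row near Pwwp2b is filled in 12 of 12 Mki67-/- libraries and empty in 12 of 12 WT libraries.

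The promoters of Apobr, Zfp941 and Ptpre lay in regions all or none at a single stage. Apobr, a lipoprotein receptor gene of myeloid cells, had a peak over its promoter in all 8 Pre-pro-B libraries, where it covered 202 to 300 of the 300 bases. In Pro-B cells the peak covered 192 to 247 bases in the 4 WT libraries and none in the 4 Mki67-/- libraries. In Small pre-B cells no library had it. The promoter of Zfp941, a zinc finger gene, was covered by 152 to 189 bases in WT Pro-B libraries and by none in Mki67-/- Pro-B libraries. Its region, chr7:140821653-140822450, was open in 4 WT and 2 Mki67-/- Pre-pro-B libraries. At Ptpre, which encodes a receptor-type tyrosine phosphatase, the promoter of one start was covered by 136 to 300 bases in WT Pre-pro-B libraries, by none in Mki67-/- Pre-pro-B libraries and by 154 bases in 1 Mki67-/- Pro-B library. A region inside Ptpre, chr7:135668493-135669694, was open in all 24 libraries.

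Of 12 neighbouring pairs of the 71 regions within 10 kb of each other, 8 had the same direction, and so had 43 of all 70 adjacent pairs. With 39 regions open in WT only and 32 in Mki67-/- only, many pairs share a direction by composition alone. The same count was not made outside the segment. In 3 of the 4 pairs of opposite direction the regions were all or none at different stages, but so they were in pairs of the same direction at Bag3 and Paox. At Cd81, a tetraspanin gene, chr7:143045366-143045981 was open in all 4 Mki67-/- Pre-pro-B libraries and no WT ones, with a -log10 q of 15.1 to 47.3. Its neighbour at a distance of 309 bp, chr7:143046291-143046826, was open in each WT Pro-B library but in no Mki67-/- Pro-B library. A further region in Cd81, chr7:143054682-143054853, was open in Mki67-/- and not in WT libraries of the same Pro-B stage, at a distance of 7855 bp. The other pairs of opposite direction lay at Abraxas2 and Ano1.

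Regions picked at one stage were then followed in the libraries of the other stages, which had no part in the pick. The 14 regions open in WT Pro-B cells only were open at 9 places in each of the 4 WT Small pre-B libraries and at 5 in each of the 4 Mki67-/- ones. The 15 regions open in Mki67-/- Pro-B cells only were open at 1 place in each WT Pre-pro-B library and at 5, 7, 6 and 5 in the Mki67-/- ones. In both of these cases the genotypes did not overlap. The 14 WT regions overlapped in Pre-pro-B cells, with 6, 6, 6 and 7 open in WT and 5, 4, 6 and 3 in Mki67-/- libraries. The 15 Mki67-/- regions were open at 2, 1, 1 and 1 places in WT and at 3, 6, 6 and 7 in Mki67-/- Small pre-B libraries, without overlap. The 10 regions open in Mki67-/- Pre-pro-B cells only were open at 0 places in all 8 later WT libraries, at 3, 4, 4 and 4 in Mki67-/- Pro-B and at 1, 3, 3 and 4 in Mki67-/- Small pre-B libraries. The 16 regions open in WT Pre-pro-B cells only behaved otherwise. They were open at 1 place in each WT Pro-B library, at 0 to 2 in the Mki67-/- ones and at none in Small pre-B cells, so that most WT peaks of this set were not found at the later stages.

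Of the Small pre-B picks, the 12 regions open in WT only were open at 7, 8, 7 and 7 places in WT and at 3, 1, 2 and 3 in Mki67-/- Pro-B libraries. In Pre-pro-B libraries the numbers were 7, 6, 7 and 6 against 5, 6, 6 and 4, which overlap. The 11 regions open in Mki67-/- only were open at 7 to 8 places in WT and 9 to 10 in Mki67-/- Pro-B libraries, and at 3 in each WT and 4 in each Mki67-/- Pre-pro-B library. Over the 6 sets and 12 comparisons, the genotypes overlapped in 4, all of them for sets open in WT only. The 12 comparisons are not separate results, because the sets share regions. The 3 against 4 of the last set came only from the region near Pwwp2b, open in 0 WT and 4 Mki67-/- Pre-pro-B libraries. That region is also in the Pre-pro-B and Pro-B Mki67-/- sets. For sets picked likewise in the rest of chromosome 7, the genotypes overlapped in each comparison. There the Pre-pro-B Mki67-/- set held only 1 region. The contrast was not tested.

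Over all 78 pairs of a region and a stage in the segment, 44.9% leaned the same way at another stage, against 26.4% of 91 in the rest of chromosome 7 and 26.8% of 1582 in the genome. The opposite lean was seen for 5.13%, 15.4% and 9.73%. Open in all 8 libraries of another stage were 23.1% in the segment, 52.7% in the rest of chromosome 7 and 48.8% in the genome. The differences between these shares were not tested, and libraries of different stages may share mice.

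Genes were compared by their number of merged peaks within 10 kb. The segment holds 329 protein-coding genes, of which 294 had peaks in at least 4 libraries and were tested. An unadjusted exact permutation p under 0.05 was found for 27, or 9.18%, against a background of 5.07% and 7.22% in the rest of chromosome 7. Of the 294, 4 had more peaks in Mki67-/- libraries at this threshold, close to the background of 1.15%. Fewer peaks were found for 23 of the 294, above the background of 3.93%. In the rest of chromosome 7, 19 of 1136 genes had more and 63 fewer. None passed after Benjamini-Hochberg adjustment of the exact permutation p over 17598 genes, with a smallest adjusted p of 0.586 in the segment, so the values given here are descriptions.

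Dmbt1 had the smallest p of the segment, with 3.75 ± 2.63 peaks in WT and 7.0 ± 1.95 in Mki67-/- libraries (SD, n = 12 each, exact permutation p = 0.000956). Its peaks numbered 2, 1, 2 and 4 in WT and 6, 5, 8 and 3 in Mki67-/- Pre-pro-B libraries, and 3, 3, 2 and 0 against 9, 9, 8 and 6 in Pro-B libraries. In Small pre-B cells they numbered 7, 6, 7 and 8 against 6, 9, 6 and 9. The genotypes were apart in Pro-B cells and overlapped at the other stages. Abraxas2, which encodes a subunit of a deubiquitinase complex, had 5.08 ± 2.47 peaks in WT and 6.58 ± 3.53 in Mki67-/- libraries (exact permutation p = 0.00679). In Small pre-B cells its peaks numbered 4, 6, 5 and 4 against 7, 9, 8 and 8, without overlap. With windows of 2 kb its mean difference was 0.167 peaks (exact permutation p = 0.782), against 1.5 with 10 kb.

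Among genes with fewer peaks in Mki67-/- cells, Jakmip3 had 2.83 ± 1.90 peaks in WT and 1.17 ± 0.389 in Mki67-/- libraries (exact permutation p = 0.00117). It had 8, 4, 3 and 3 peaks in WT and 1 in each of the Mki67-/- Small pre-B libraries. Its difference, Mki67-/- minus WT, was -1.67 peaks, but only -0.167 when lists were limited to their 40000 strongest entries after merging (exact permutation p = 0.622). Ebf3, a relative of the B-lineage factor Ebf1, had 5.58 ± 1.24 and 4.00 ± 0.953 peaks (exact permutation p = 0.00322). Its peaks numbered 6, 5, 6 and 5 in WT and 5, 3, 4 and 4 in Mki67-/- Pro-B libraries, which overlap at 5. The difference of Ebf3 likewise went from -1.58 to -0.333 (exact permutation p = 0.331). Tnfrsf22, Tnfrsf23 and Tnfrsf26 encode decoy receptors of the tumour necrosis factor family and lie side by side as near copies. Tnfrsf26 had 4.50 ± 0.905 and 2.67 ± 1.3 peaks, Tnfrsf23 3.67 ± 0.888 and 1.83 ± 1.4 and Tnfrsf22 4.50 ± 1.00 and 2.92 ± 1.16. Their windows share peaks, so they are not 3 separate results, and reads of near copies can be misplaced. The difference of Tnfrsf22 changed sign when windows were cut to 2 kb. In the same restricted lists the differences were -0.917 for Tnfrsf22 and Tnfrsf26 and -0.750 for Tnfrsf23, against -1.58, -1.83 and -1.83. Cln3 and Apobr likewise share a window and each had a difference of -0.833 peaks, or -0.333 with the 40000 strongest (exact permutation p = 0.0918).

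**Figure D5:**
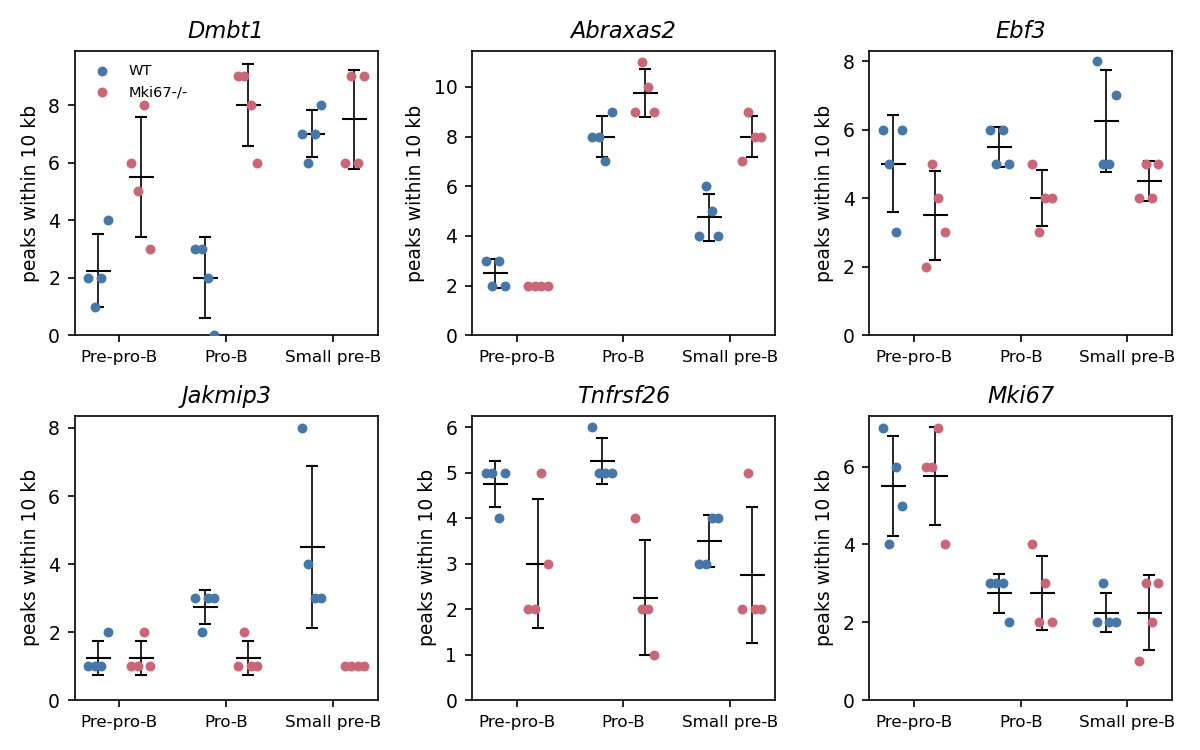
Merged peaks within 10 kb of 6 segment genes (y axis) in each library (points) by stage and genotype, with the mean (bar) and SD (whiskers) of 4 libraries. Dmbt1 is higher in all Mki67-/- than in all WT Pro-B libraries, Jakmip3 lower in all Mki67-/- than in all WT Small pre-B libraries, and Mki67 overlaps at each stage.

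Lists of genes by function showed few members past the unadjusted test and none past the adjusted one. Over all genes tested, 1.15% had more peaks in Mki67-/- libraries and 3.93% fewer at that threshold, and shares of lists this short rest on 1 or 2 genes. Of 16 lymphocyte surface and signalling genes, 1 had fewer peaks in Mki67-/- libraries (Tspan32, a tetraspanin gene, 5.75 and 4.83 peaks, exact permutation p = 0.0204), or 6.25%, and none more. Tspan32 had a difference of -0.917, but -0.167 among the 40000 strongest (exact permutation p = 0.571), and with windows of 2 kb -0.583 (exact permutation p = 0.069). The median difference over the list was -0.167 peaks, against -0.0833 over all genes tested. Cd81 had 4.67 and 5.25 peaks (exact permutation p = 0.324) and Lat, a T-cell adaptor, 3.75 and 3.42 (exact permutation p = 0.359). Of 10 myeloid integrin and innate genes, Dmbt1 alone, or 10.0%, had more peaks and none fewer, with a median difference of 0.250. Itgam had 10.2 peaks in both genotypes.

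Of 15 genes of the imprinted cluster, where the parent of origin sets which copy is active, 2 had fewer peaks, Tspan32 and the potassium channel gene Kcnq1 (11.4 and 9.67 peaks, exact permutation p = 0.0373), or 13.3%, and none more. The median difference was -0.417. Without the 3 libraries that stood apart the difference of Kcnq1 was -0.778 (exact permutation p = 0.182), against -1.75, and with the 40000 strongest peaks -0.667 (exact permutation p = 0.038). Of 16 cell cycle and growth genes, 2, or 12.5%, had fewer peaks and none more, with a median difference of 0. These were the growth factor receptor gene Fgfr2 (1.5 and 0.667, exact permutation p = 0.0106) and the phosphatase gene Inpp5f (8.67 and 7.58, exact permutation p = 0.0198). Ccnd1, which encodes cyclin D1, had 6.58 and 6.67 peaks (exact permutation p = 1). Of 17 chromatin, transcription and DNA repair genes, Abraxas2 had more peaks (5.88%) and Ebf3 and Srcap, a remodeller gene, fewer (11.8%), with a median difference of 0.0833. Srcap had a difference of -0.417 peaks (exact permutation p = 0.0459), which was -0.0833 with the 40000 strongest peaks (exact permutation p = 1) and -0.306 without the 3 libraries that stood apart (exact permutation p = 0.107). Peaks within 10 kb can belong to a neighbour, and several list members share windows.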

How the data were processed

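Trimmomatic for trimming and MACS2 for narrow peaks on mm10, 1 list per library, are named in the submitters' processing notes, beside deepTools, DiffBind and DESeq2. The aligner and all versions are not given in the sources used here. The deposited score is 10 times the -log10 q, the fold enrichment deposited for each peak sets its summit against the background around it, and so do the -log10 p and -log10 q the authors give. The lowest deposited -log10 q was 2, a q of 0.01. Since each library was called on its own, such values served only for ranks, filters and descriptions. Read depth is unknown, and the number of peaks, 77044 to 206148 entries per list, stands beside the results instead.

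Overlapping or touching entries were merged within a library (chromosomes 1 to 19 and X) and joined over 24 libraries to regions. Presence meant an overlap of at least 1 bp. Peaks within 10 kb were counted for 21631 protein-coding genes (RefSeq, GRCm38.p6), and genes with a peak in 4 or more libraries were tested. Nearest genes are named by gene end, as the table holds no strand. Two-sided exact permutation tests compared means, with genotype permuted within stage, on regions with a peak in 4 to 20 libraries, and p-values were adjusted by Benjamini and Hochberg over the genome (threshold 0.05). Shares have exact binomial intervals at 95%. The scripts were tested on simulated data and used Python 3.11.15, numpy 2.4.6, pandas 2.3.3 and SciPy 1.17.1.

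The members, gene lists, tests and alternatives were chosen with earlier results of these data known. Named were Mki67 and its locus, regions at the segment limits, regions all or none at 2 or more stages or with an across-stage p under 0.001, the 5 strongest such regions per stage and direction, up to 10 genes per direction by smallest p, and members of 5 gene lists. Not each of these is printed. H19 was not matched as a protein-coding gene, and Il4ra, Il21r and Nsmce1 of the lists lie outside the segment. Of the erythroid and megakaryocyte markers, peaks summed to 12.8 to 15.5 in the 6 groups, and Gata1 had none after the Pre-pro-B stage. Cd8a and Ncr1 had none in 3 of the groups.
The promoters were searched on both strands for the E-box CANNTG, the Ets core GGAA, the Ikaros motif TGGGAA, the cell-cycle motif TTTGAA, the CCAAT box, the GC box GGGCGG, and the EBF and CTCF motifs. Sequences of regions away from promoters were not used here.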

Additional observations from a re-analysis of the deposited data

Results flagged for a closer look

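In 54 sets of 4 libraries, over 9 measures of the segment and its genes, 8 held a library far from the other 3 by Dixon's ratio (above 0.829). Chance gives such a library in about 1 of 20 groups, and 7 of the 8 come from small whole numbers in which the other 3 libraries are equal. The 10 B-lineage marker genes had 51 peaks in Mki67-/- Pre-pro-B replicate 4, against 66 to 67 in the other 3. Jakmip3 had 2 peaks in WT Pre-pro-B replicate 4 and in Mki67-/- Pre-pro-B replicate 3, against 1 in the other 3 libraries of each group. It also had 2 peaks in WT Pro-B replicate 2, against 3 in the others, and 2 in Mki67-/- Pro-B replicate 2, against 1. Tnfrsf26 had 4 peaks in WT Pre-pro-B replicate 3 and 6 in WT Pro-B replicate 1, against 5 in the others of each group. In Mki67-/- Small pre-B replicate 2 it had 5, against 2 in the other 3 libraries. No region of the segment was open only in WT cells at one stage and only in Mki67-/- cells at another, and none in the rest of the genome was.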

How the results depend on the processing

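The share of segment regions all or none by genotype exceeded that of the rest of chromosome 7 in all 44 alternative runs over the 3 stages, by 1.13 to 6.91 times. In the order of the stages, the 40000 strongest peaks gave 12, 12 and 19 such regions, and a limit of 5 Mb from Mki67 gave 12, 13 and 12. A -log10 q of at least 10 gave 11 in Pre-pro-B cells. The Pre-pro-B share was 21.6% with that minimum, 22.4% with a cover of at least 0.5 of the region and 21.4% without the 3 libraries that stood apart, which gave 51 regions and 60.0% in Small pre-B cells. Leaving out 1 library gave 27 to 36, 30 to 35 and 24 to 45 regions and shares of 17.2% to 26.1%, 24.6% to 28.5% and 18.8% to 34.6%, since 7 libraries admit more regions to the denominator. Regions with an unadjusted p under 0.05 numbered 44 with the 40000 strongest peaks, 31 within 5 Mb and 66 to 97 without 1 library. Same-numbered libraries of the genotypes did not vary together (correlations of -0.209 to 0.0871, none of 12 over 0.1), so the numbers are not taken as pairs. A replicate block left 28 regions and 20 genes, against 79 and 27, and 0 of either passed the adjusted test in any run. For the 8 regions with p under 0.001, none of 240 values, counted over regions and alternative settings together, turned the direction. Most of these settings, 24 for each region, only leave out 1 library. In all of the regions but the one near Mapk1ip1, one genotype had no peak in any library. Leaving out libraries or peaks could not turn the direction there. Near Mapk1ip1, with 12 WT and 4 Mki67-/- libraries, leaving out 1 library could not turn it either, so the count lends the directions no support. With the 40000 strongest peaks the difference at Htra1 and Mapk1ip1 was only 0.0833 and -0.0833 (exact permutation p = 1 each). Of 19 genes, 3 changed sign: Mki67 (a difference of -0.333 and -0.250 peaks with a -log10 q of at least 5 and 10, and -0.0833 to 0.278 without 1 library), Mmp21 (0.167 with the 40000 strongest peaks) and Tnfrsf22 (0.0833 with 2 kb windows); the cause was not tested. Read depth is unknown, so what it limits was not tested.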
